A study of Mus musculus with 12 samples.

Results

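The genes of cyclic nucleotide turnover and of protein kinase A (PKA) were followed in the frontal cortex of mice with normal, reduced and partly restored Grin1 expression. The members were all gene models, in the deposited Cuffdiff tables, that were tested and carried a symbol of a phosphodiesterase (Pde), an adenylyl cyclase (Adcy), a PKA catalytic or regulatory subunit (Prkac, Prkar) or an A-kinase anchoring protein (Akap). Pde10a and Adcy5 were left out by the rule and are given once as context. Of 15201 symbols tested in any table, 45 were members: 18 phosphodiesterase genes, 9 cyclases, 6 PKA subunits and 12 anchoring proteins. A further 6 matching symbols (Akap3, Akap4, Akap14, Pde6a, Pde6b and Pde6c) were not tested in any table, and no untested model reached more than 0.257 FPKM. The rule used names and whether a model was tested, not the size or direction of its difference between groups. The members were chosen with earlier results of these data known. Pde6d matches by name but encodes a prenyl-binding protein rather than a catalytic subunit.

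The study sequenced polyadenylated RNA of frontal cortex from 12 male F1 hybrids of C57Bl/6 and 129/SvlmJ mice at 14 weeks of age, in 3 groups of 4 animals. The groups are labelled WT (wild type), GluN1 (Grin1 knockdown, here "knockdown") and GluN1Cre (Grin1 knockdown with Cre rescue, here "rescue"). Grin1 encodes the obligatory GluN1 subunit of the NMDA receptor, a calcium-permeable glutamate receptor. All groups, wild type included, received tamoxifen from 10 weeks of age over 2 weeks, a gavage dose of 6 mg and roughly 14 mg more with the chow. By the group names only the rescue animals carried Cre, so Cre itself and restored Grin1 cannot be told apart, and the Grin1 allele and the Cre driver are not given in the sources used here. The tables hold 1 FPKM (fragments scaled to transcript length and library size, so that levels of different genes can be compared) per group, estimated by Cuffdiff over the 4 libraries. Values per animal, their spread and the depth of each library are therefore unknown, and whether groups overlap cannot be seen. A model was called changed at the study's threshold, p under 0.05 and q under 0.10, where q is the p-value adjusted over all models tested in that table.

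Adenylyl cyclases make cAMP from ATP, phosphodiesterases break down cAMP or cGMP, and PKA is the main cAMP-dependent kinase. In its resting form PKA is held by regulatory subunits, which release the catalytic subunits when cAMP binds, and anchoring proteins place the enzyme beside its substrates. In cortical neurons, calcium entering through NMDA receptors can act on both sides of this balance, since some cyclases and the Pde1 phosphodiesterases are stimulated by calcium and calmodulin.

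Grin1 itself was at 138 FPKM in wild type and 56.7 in the knockdown, 41.0% of wild type (q = 0.00456 in the authors' deposited Cuffdiff table). It was 65.7 in the knockdown and 86.7 in the rescue group in the table of that pair (q = 0.038, the authors' deposited Cuffdiff table), and the rescue group held 56.5% of the wild-type level. All cortical excitatory neuron markers on a fixed list were tested against wild type, with a lowest value of 5.59 FPKM. Their summed level in the knockdown was 94.3% of wild type. Of their 9 models there, 8 had log2 folds below 0 (median -0.11), and 1 was called lower. Other tissue markers moved with the groups: the summed level of the olfactory bulb markers, 10 of them tested, was 50.4 FPKM in wild type and 135 in the knockdown (269% of wild type), and 160% of wild type in the rescue group. All marker sums given here include any untested models of the listed genes. Summed striatal medium spiny neuron markers were at 86.4% and 77.6% of wild type in the knockdown and the rescue group. In the knockdown 16 of 16 striatal models had log2 folds below 0 (median -0.45), with 6 called lower. In the rescue group 15 of 15 were below 0 (median -0.51), with 10 called lower. The part that these marker differences have in the results below was not tested. In bulk tissue, fewer cells of a type and less RNA per cell cannot be told apart.

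Because the tables were assembled and normalised separately, each group appears with a pair of estimates. For most members these were close: the median absolute log2 difference between tables was 0.014 for wild type over 44 matched members, 0.0056 for knockdown over 42 and 0.018 for rescue over 43. More than 1.1-fold apart were 3, 5 and 4 members in that order. The widest gap within each group was 1.88-fold for the low model of Adcy1 in wild type, 2.41-fold for the low model of Akap8/Akap8l in the knockdown and 1.66-fold for a model of Adcy10 in the rescue group. The low model of Pde4d was also 1.65-fold apart in wild type and 1.73-fold in the knockdown. These genes had been assembled into several models in at least 1 table. Genes with 1 tested model per table were also more than 1.1-fold apart. They were Adcy6 (1.16-fold in wild type, 1.12-fold in the knockdown), Adcy8 (1.17-fold in the knockdown, 1.16-fold in rescue) and Prkar2a (1.13-fold in the knockdown, 1.12-fold in rescue). Models were matched between tables by symbol, number of models and rank of mean FPKM, so a matched pair need not cover the same transcripts.

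The proximal promoters of the members were read for the cAMP response element, the palindrome TGACGTCA bound by the transcription factor CREB, a substrate of PKA. RefSeq windows of build GRCm38.p6, from 250 bases before to 50 after each transcript start, were found for 37 of the 45 symbols, 77 windows in all. Adcy8 and Pde3a, called below, were among the symbols without a window. The full element was in 2 of the 77 windows (2.60%) and in 588 of 32851 windows of all genes (1.79%), searched on both strands. Both member windows belonged to Prkar1a, overlap and hold the same site. By symbol, 1 of 37 members and 549 of 27025 of all genes had it. The core TGACG, which the full element contains, was in 17 member windows (22.1%) and in 20.8% of all windows. The Prkar1a element is shown because it is the full element found among the members. It begins 49 bases before a transcript start, at chr11:109650889-109650918 on the plus strand, with the element in capitals:

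Prkar1a: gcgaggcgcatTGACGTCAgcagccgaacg

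Pde1c and Akap7, called below, each had a RefSeq window whose 250 bases before the start hold no base of the gene's own exons. They are chr6:56369635-56369884 (Pde1c, minus strand) and chr10:25297080-25297329 (Akap7, minus strand). Both lie inside the annotated gene, whose upstream end is at 56569103 for Pde1c and 25307870 for Akap7, and so precede internal starts. These 250 bases are shown to set the sequence of a member that rose beside that of a member that fell. Which start was used in these samples was not tested. Neither holds TGACG on either strand, so no letter is in capitals. Their GC content was 49.6% and 67.2%. Another Pde1c window without bases of its own exons, chr6:56362811-56363060, had a GC content of 42.8% and is not shown. It also holds no TGACG.

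Pde1c: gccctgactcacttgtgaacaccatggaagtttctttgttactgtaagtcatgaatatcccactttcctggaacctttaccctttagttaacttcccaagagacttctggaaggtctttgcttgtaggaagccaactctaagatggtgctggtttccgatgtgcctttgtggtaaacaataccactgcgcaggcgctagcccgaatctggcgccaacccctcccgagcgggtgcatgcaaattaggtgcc

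Akap7: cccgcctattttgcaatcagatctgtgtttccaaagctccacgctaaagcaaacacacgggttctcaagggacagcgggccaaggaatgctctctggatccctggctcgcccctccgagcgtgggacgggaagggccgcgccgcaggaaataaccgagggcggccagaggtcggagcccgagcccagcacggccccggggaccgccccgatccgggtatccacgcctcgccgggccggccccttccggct

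In wild type the most abundant members were PKA subunits, and each enzyme family was led by a few genes. Prkar1b, a type I regulatory subunit enriched in neurons, was at 349 FPKM and made up 40.7% of the PKA sum, followed by Prkar1a with 27.7%, Prkacb with 16.3% and Prkaca with 9.77%. Among cyclases, the calcium- and calmodulin-stimulated Adcy1 held 45.1% of the summed level and Adcy2 25.6%. Pde2a, a cGMP-stimulated enzyme that hydrolyses both nucleotides, led the phosphodiesterases with 29.2%, ahead of Pde1a with 15.3% and Pde1b with 13.6%. Akap8 and the adjacent Akap8l, which the authors' assembly merged into shared models, held 25.2% of the anchoring protein sum, Akap11 18.1% and Akap6, known as a muscle anchoring protein of the nuclear envelope, 14.0%. At the low end, Pde3a, Adcy10, Adcy4, Pde4c and Pde11a were under 1 FPKM in the wild-type column of its table with the knockdown.

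**Figure D1:**
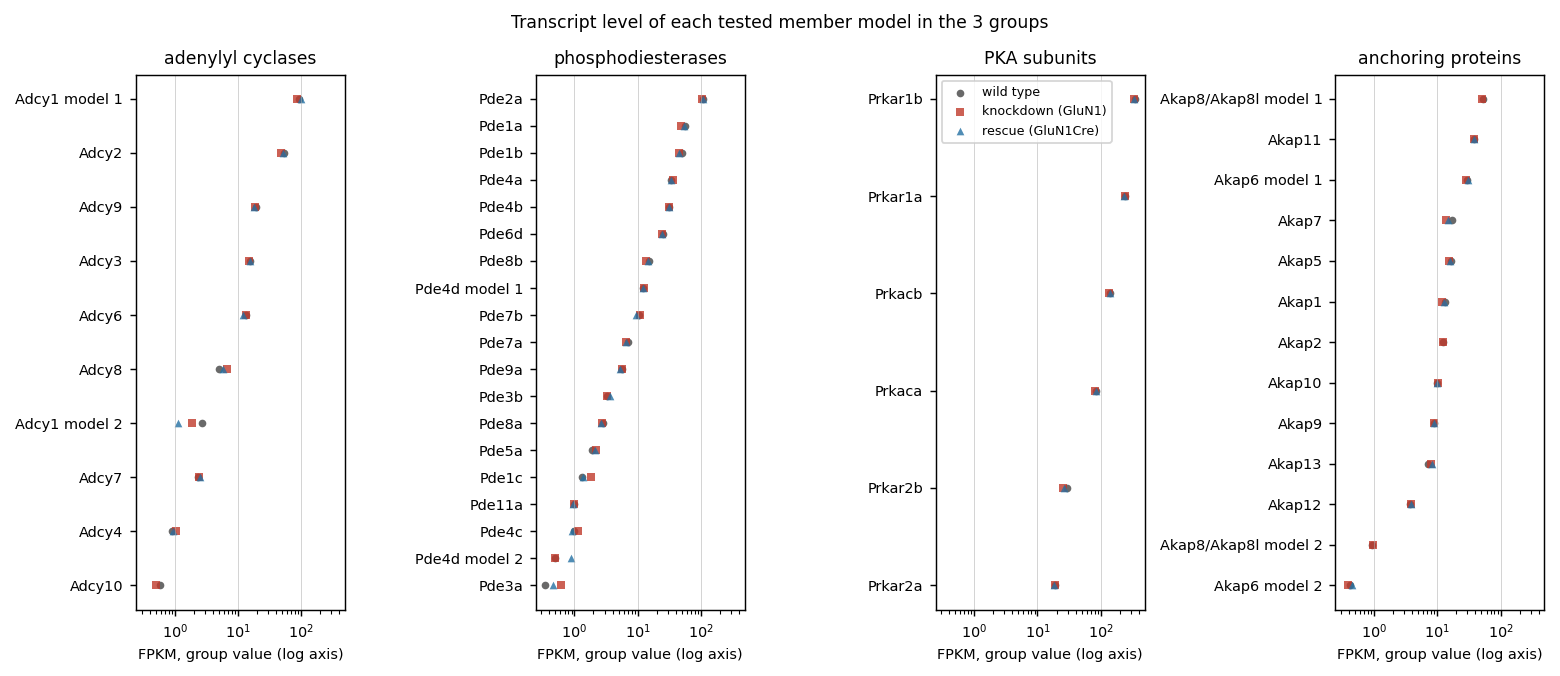
FPKM of each member model (log axis), by family, in wild type and knockdown from the table of that pair and in rescue from the table of rescue against wild type. The markers of the groups lie on top of each other for most members, and members whose models differ between the tables have no rescue marker.

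In the knockdown, Adcy8, Pde3a and Pde1c rose and Akap7 fell, while the remaining members did not pass the threshold. These 4 were 8.33% of the 48 member models tested, and 2.52% of all 18417 tested models were called in that table. All models called higher were 1.66% of those tested and all called lower 0.858%. The median log2 fold of the members was -0.024, beside -0.0033 for all tested models, and 42 of the 48 member models lay within 0.25 of 0. At an unadjusted p under 0.05 there were 6 member models, the 4 called ones with Pde1a and Prkar2b, beside 7.91% of all tested models. All 4 calls rest on the p-values that Cuffdiff gave. When p was instead taken from the deposited test statistic read as a normal deviate, 0 members and 41 of all models were called, beside 464 with the deposited p. The statistic was at the median 0.50 of the deviate that the deposited p gives. This reading therefore loses most calls by its scale and cannot decide on these 4. In the same pair of groups, summed markers of inhibitory interneurons and of meningeal fibroblasts were at 130% and 129% of wild type, beside the 269% of the olfactory bulb list. None of the tested bulb markers was at 0, but the lowest value among them was only 0.155 FPKM. Of the 10 interneuron models, 7 were above 0 on the log2 scale, 6 of these called higher, and 3 were below 0. All 10 fibroblast models were above 0, with 5 called higher. Astrocyte markers summed to 108% of wild type, with 8 of 8 models above 0 on the log2 scale and 2 called higher, and endothelial and mural cell markers to 114%, with 8 of 8 models above 0, 0 called in the authors' Cuffdiff test and 3 at an unadjusted p under 0.05.

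Adcy8 encodes a calcium- and calmodulin-stimulated cyclase and lies on chromosome 15 (chr15:64697084-64922296, minus strand, GENCODE M21 on GRCm38). Its level was 4.94 FPKM in wild type and 6.69 in the knockdown, a log2 fold of 0.44 (p = 5e-05, q = 0.00456 in the authors' deposited Cuffdiff table). It was the member called among the 10 cyclase models of that table. Adcy1 and Adcy3, which share the calmodulin-stimulated class with Adcy8, had values of 92.8 and 85.2 FPKM (main model of Adcy1) and 15.8 and 15.2 FPKM in wild type and knockdown, and neither was called. The summed level of this class was 116 FPKM in wild type and 109 in the knockdown. Adcy2, of the calmodulin-insensitive class, was at 52.7 and 48.6 FPKM and Adcy9 at 19.5 and 18.8 FPKM. The 9 uncalled cyclase models had log2 folds from -0.55, for the low second model of Adcy1, to 0.24 for Adcy4.

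Pde3a encodes a cGMP-inhibited phosphodiesterase (chr6:141249269-141507448, plus strand). It was low in cortex, 0.346 FPKM in wild type and 0.610 in the knockdown, and had the largest fold of any member model in that comparison, 0.82 on the log2 scale (p = 5e-05, q = 0.00456 in the authors' deposited Cuffdiff table). With 1 FPKM added to both groups the fold was 0.26, and a minimum mean of 1 FPKM removed the gene and so its call. Its paralog Pde3b was at 3.23 and 3.25 FPKM.

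Pde1c encodes a calmodulin-dependent phosphodiesterase that hydrolyses both cAMP and cGMP (chr6:56069804-56569103, minus strand). It was at 1.33 FPKM in wild type and 1.80 in the knockdown, a log2 fold of 0.44 (p = 0.00115, q = 0.0562 in the authors' deposited Cuffdiff table), and 0.27 with 1 FPKM added. Its far more abundant paralogs had lower values in the knockdown than in wild type without being called: Pde1a was at 55.7 and 49.1 FPKM (log2 fold -0.18, q = 0.391 in the authors' deposited Cuffdiff table) and Pde1b at 49.8 and 45.1 FPKM (log2 fold -0.14). The summed level of the 3 Pde1 genes was 107 FPKM in wild type and 96.0 in the knockdown, a difference of the sum opposite in sign to that of Pde1c.

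The cAMP-specific phosphodiesterases, of the Pde4, Pde7 and Pde8 groups, had 0 calls among 9 models and sums of 114 FPKM in wild type and 115 in the knockdown. Pde4a, Pde4b and the main model of Pde4d, rolipram-sensitive enzymes of the brain, were at 33.7 and 36.0, 31.4 and 31.3, and 12.3 and 12.6 FPKM. The cGMP-specific pair, Pde5a and Pde9a, summed to 7.58 and 7.73 FPKM. Pde2a was at 107 and 106 FPKM. Over the 17 uncalled phosphodiesterase models the log2 folds ran from -0.18 (Pde1a) to 0.25 (Pde4c).

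Akap7 encodes an anchoring protein, also known as AKAP15 or AKAP18, whose short forms tether PKA to the plasma membrane (chr10:25169090-25307870, minus strand). Its level was 17.0 FPKM in wild type and 13.7 in the knockdown, and it fell by 0.31 on the log2 scale (p = 0.0008, q = 0.0432 in the authors' deposited Cuffdiff table). The other 12 anchoring protein models had log2 folds from -0.12 (Akap1) to 0.16 (Akap13). Akap5, a scaffold of the postsynaptic density, was at 16.4 and 15.3 FPKM. Akap9, whose short product yotiao binds the GluN1 subunit, was at 8.78 and 8.73 FPKM. Akap11 was at 38.1 and 37.5 FPKM, the main model of Akap6 at 29.5 and 28.9 FPKM and that of Akap8/Akap8l at 53.0 and 51.4 FPKM.

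None of the 6 PKA subunits was called in the knockdown, and 1 had an unadjusted p under 0.05. That was Prkar2b, a type II regulatory subunit enriched in brain (chr12:31958476-32061296, minus strand), at 29.6 FPKM in wild type and 25.3 in the knockdown (log2 fold -0.23, p = 0.00565, q = 0.178 in the authors' deposited Cuffdiff table). Prkar1a was at 238.0 FPKM in wild type and 238.1 in the knockdown, and Prkar1b at 349 and 340 FPKM. Prkar2a was at 18.7 and 18.8 FPKM. The catalytic subunits Prkaca and Prkacb were at 84.0 and 81.9 FPKM and at 140 and 135 FPKM. Regulatory subunits together summed to 636 and 622 FPKM and catalytic subunits to 224 and 217 FPKM, a ratio of 2.84 and 2.87. Type I subunits supplied 92.4% of the regulatory sum in wild type and 92.9% in the knockdown.

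**Figure D2:**
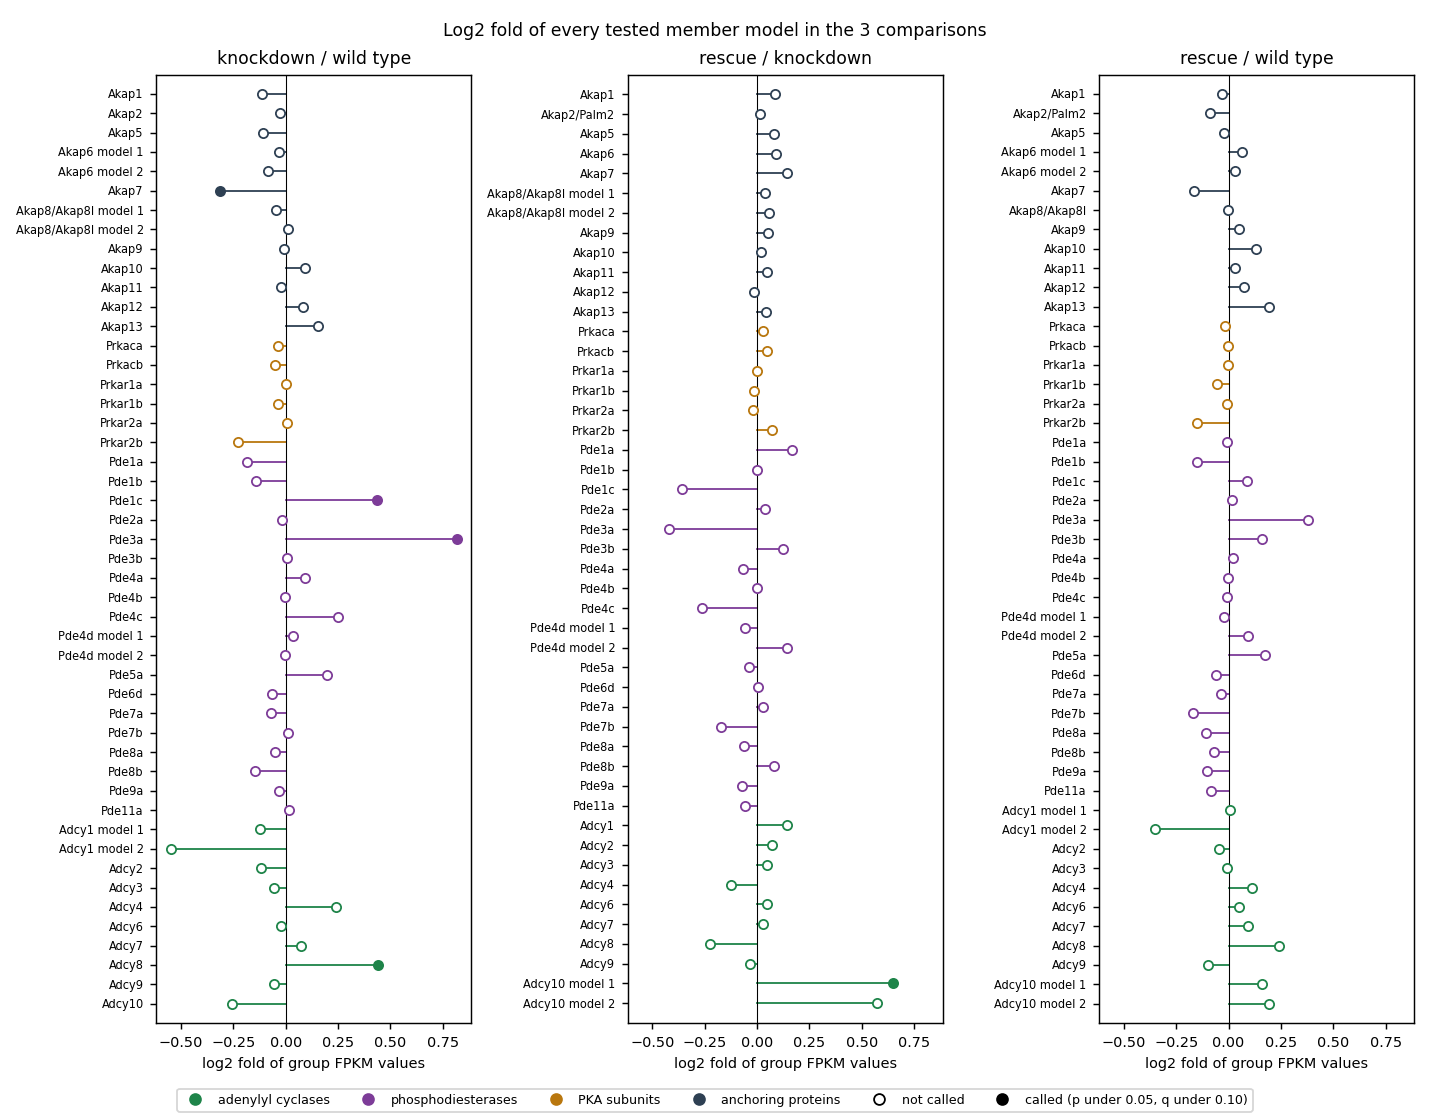
Log2 fold of every member model in the 3 comparisons, by family, with filled points for called models. Most points lie within 0.25 of 0, with 4 filled points in the panel of knockdown and wild type, 1 in that of rescue and knockdown and 0 in that of rescue and wild type.

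Comparing rescue with knockdown asks which members differed once Grin1 was partly restored in adult animals. This comparison shares the knockdown group with the one above, so the folds of both are not independent and are set side by side only. Adcy10, which encodes the soluble, bicarbonate-stimulated cyclase, was the member called: 1 of 47 member models (2.13%), beside 0.689% of all 18430 models tested, 0.13% called higher and 0.559% called lower. Its call rests on 1 of a pair of models at low level. That model was at 0.199 FPKM in the knockdown and 0.312 in the rescue group, and it rose by 0.65 on the log2 scale (p = 0.0004, q = 0.0647 in the authors' deposited Cuffdiff table), or by 0.13 with 1 FPKM added. The call was lost with q under 0.05 and with a minimum mean of 1 FPKM. It was also lost with p taken from the test statistic, a reading that removes most calls by its scale. The other Adcy10 model was at 0.196 and 0.292 FPKM (q = 0.854 in the authors' deposited Cuffdiff table). In the wild-type and knockdown table Adcy10 had 1 tested model, at 0.595 FPKM in wild type and 0.499 in the knockdown (q = 0.906 in the authors' deposited Cuffdiff table). The Adcy10 model ranked first by level was at 0.312 FPKM in the rescue group in one table and 0.518 in another (chr1:165485183-165576774, plus strand). These models need not cover the same transcripts.

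None of the members called in the knockdown was called between rescue and knockdown, where the summed olfactory bulb markers of the rescue group were at 60.8% of the knockdown and the astrocyte markers at 90.6%, with 9 of 9 astrocyte models below 0 on the log2 scale and 2 called lower. Adcy8 was at 7.84 FPKM in the knockdown and 6.71 in the rescue group (log2 fold -0.22, p = 0.04 before adjustment in the authors' deposited Cuffdiff table). The level of Adcy8 in the knockdown was 6.69 FPKM in the table against wild type, 1.17-fold under its value here. Pde3a was at 0.609 and 0.455 FPKM (log2 fold -0.42, q = 0.40 in the authors' deposited Cuffdiff table). Pde1c was at 1.79 and 1.40 FPKM (log2 fold -0.36, q = 0.271 in the authors' deposited Cuffdiff table). Akap7 was at 13.8 and 15.2 FPKM (log2 fold 0.14, p = 0.113 before adjustment in the authors' deposited Cuffdiff table).

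At an unadjusted p under 0.05 there were 7 member models between rescue and knockdown, beside 4.19% of all tested models. They were both Adcy10 models, Adcy8, Pde3a, Pde1c, Pde1a and Pde7b. Pde1a was at 49.3 and 55.4 FPKM (log2 fold 0.17, q = 0.975 in the authors' deposited Cuffdiff table). Pde7b, a cAMP-specific enzyme with high expression in striatum, was at 10.8 and 9.54 FPKM (log2 fold -0.17, p = 0.0428 before adjustment in the authors' deposited Cuffdiff table). The median log2 fold of the members was 0.026, beside -0.0056 for all tested models. Of the 12 anchoring protein models none was called, and 11 (91.7%) had log2 folds above 0, beside 47.2% of all tested models. These folds were small, with a median of 0.05 and a maximum of 0.14, and Akap8/Akap8l supplied 2 of the 12 models. In the other families 8 of 19 phosphodiesterase, 7 of 10 cyclase and 4 of 6 PKA subunit models were above 0.

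None of the 6 PKA subunits was called between rescue and knockdown, and 0 had an unadjusted p under 0.05 in the authors' Cuffdiff test. Prkar2b was at 26.3 FPKM in the knockdown and 27.6 in the rescue group (log2 fold 0.07), Prkar1a at 239.2 and 239.3 FPKM and Prkar1b at 337 and 334 FPKM. Prkar2a was at 16.7 and 16.4 FPKM, while the same knockdown group was at 18.8 FPKM in the comparison with wild type. Prkaca was at 81.9 and 83.4 FPKM and Prkacb at 135 and 140 FPKM. Their log2 folds ran from -0.02 to 0.07.

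**Figure D3:**
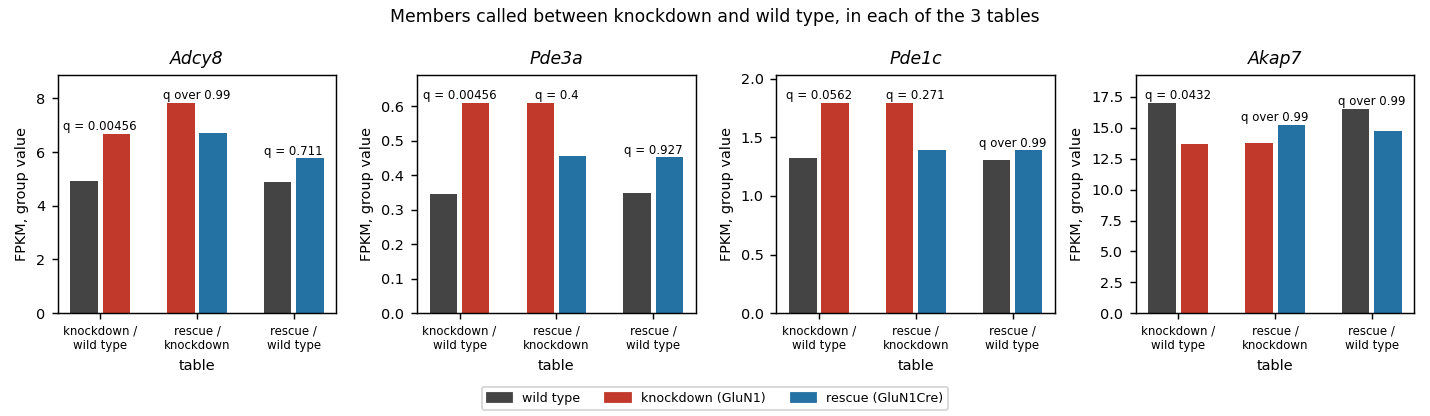
FPKM of Adcy8, Pde3a, Pde1c and Akap7, the members called in the knockdown, as bars for the groups of each of the 3 tables with the authors' q-value. Each bar is 1 Cuffdiff estimate over 4 libraries and has no error bar. Adcy8 shows the gap between tables, 6.69 against 7.84 FPKM for the same knockdown group and 6.71 against 5.79 FPKM for the same rescue group.

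Between the rescue group and wild type, 0 of 48 member models passed the threshold in the authors' Cuffdiff test, beside 0.841% of all 18429 models tested, 0.364% called higher and 0.478% called lower. At an unadjusted p under 0.05 there were 3, beside 4.32% of all tested models. These were Adcy8, Pde3a and Akap13. Adcy8 was at 4.89 FPKM in wild type and 5.79 in the rescue group (log2 fold 0.24, q = 0.711 in the authors' deposited Cuffdiff table). In the comparison with the knockdown the same rescue group was at 6.71 FPKM for Adcy8, 1.16-fold above its value here. Pde3a was at 0.347 and 0.452 FPKM (log2 fold 0.38, q = 0.927 in the authors' deposited Cuffdiff table). Akap13, a large anchoring protein, was at 7.10 and 8.13 FPKM (log2 fold 0.19, q = 0.848 in the authors' deposited Cuffdiff table).

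Neither of the other members called in the knockdown reached an unadjusted p under 0.05 between rescue and wild type. Pde1c was at 1.31 and 1.39 FPKM and Akap7 at 16.6 and 14.8 FPKM (log2 fold -0.17, p = 0.0670 before adjustment in the authors' deposited Cuffdiff table). Pde1a was at 54.8 and 54.6 FPKM, and Pde1b at 49.7 and 44.8 FPKM (log2 fold -0.15, p = 0.0577 before adjustment in the authors' deposited Cuffdiff table). Between rescue and knockdown Pde1b was at 45.1 FPKM in both groups. Prkar2b was at 29.0 and 26.1 FPKM (log2 fold -0.15, p = 0.0655 before adjustment in the authors' deposited Cuffdiff table). Calmodulin-stimulated cyclases summed to 120 FPKM in both groups, and cAMP-specific phosphodiesterases to 114 and 112 FPKM. The 3 Pde1 genes summed to 106 FPKM in wild type and 101 in the rescue group (log2 ratio -0.07). Regulatory PKA subunits summed to 632 and 616 FPKM and catalytic subunits to 222 and 221 FPKM. Type II regulatory subunits alone summed to 47.5 and 44.5 FPKM (log2 ratio -0.09). The median log2 fold of the 48 member models was -0.0034, beside -0.0080 for all tested models, and 46 of them lay within 0.25 of 0.

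Pde10a and Adcy5, both prominent in striatal neurons and left out of the members, were not called in any comparison. Pde10a was at 14.8 FPKM in wild type and 12.6 in the rescue group (log2 fold -0.23, q = 0.471 in the authors' deposited Cuffdiff table), and Adcy5 at 40.9 and 37.3 FPKM in that pair. Both are on the striatal marker list whose sum was lower in the knockdown and rescue groups, as given above.

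Genes around the members were then counted from fixed lists. Beside the counts of every list stand the shares of all tested models called higher and lower. These were 1.66% and 0.858% in the knockdown, 0.13% and 0.559% between rescue and knockdown, and 0.364% and 0.478% between rescue and wild type. Among cyclic nucleotide partners (28 of 31 listed genes tested, 34 models), 4 models rose in the knockdown and 0 fell, with a median log2 fold of 0.04. Adcyap1, the neuropeptide PACAP, which activates cyclases through its receptors, went from 15.0 FPKM in wild type to 22.2 in the knockdown (log2 fold 0.56, q = 0.00456 in the authors' deposited Cuffdiff table). Rapgef3, the cAMP-activated exchange factor EPAC1, was at 8.44 and 10.7 FPKM (log2 fold 0.35, q = 0.0269 in the authors' deposited Cuffdiff table). Crem, a cAMP-responsive transcription factor, was at 7.01 and 9.26 FPKM (log2 fold 0.40, q = 0.0530 in the authors' deposited Cuffdiff table). Hcn4, of the hyperpolarization-activated cyclic nucleotide-gated pacemaker channels, was at 1.64 and 2.23 FPKM (log2 fold 0.45, q = 0.0900 in the authors' deposited Cuffdiff table). Between rescue and knockdown 2 partner models fell, Npr1, a natriuretic peptide receptor that makes cGMP, from 2.52 to 1.74 FPKM and Rapgef3 from 10.4 to 8.32 FPKM, and the median over 35 models was -0.03. Between rescue and wild type 1 of 33 models rose, Adcyap1, at 14.8 and 21.0 FPKM (log2 fold 0.50, q = 0.0098 in the authors' deposited Cuffdiff table).

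Among receptors coupled to Gs, the G protein that stimulates cyclases, 1 of 17 models rose and 3 fell in the knockdown, with a median log2 fold of -0.20. Vipr2, a receptor for VIP and PACAP, rose from 0.729 to 1.96 FPKM (log2 fold 1.42). Adora2a fell from 3.74 to 2.43 FPKM and Drd1a from 5.64 to 3.95 FPKM, each with q = 0.00456 in the authors' deposited Cuffdiff table, as for Vipr2. The main model of Adrb1 fell from 16.8 to 13.0 FPKM (q = 0.0562 in the authors' deposited Cuffdiff table). Between rescue and knockdown Vipr2 alone of the list's 17 models was called, falling from 1.95 to 1.23 FPKM (q = 0.0291 in the authors' deposited Cuffdiff table), and the median was 0.09. Between rescue and wild type, 2 of 16 models fell, Adora2a by 0.91 and Drd1a by 0.59 on the log2 scale, and Vipr2 rose by 0.66, with a median of -0.11. Drd1a and Adora2a are also on the striatal marker list. So is Ppp1r1b (DARPP-32), a PKA-controlled phosphatase inhibitor, which was called among the 8 PKA inhibitor and phosphatase regulator genes: it fell from 58.6 to 48.3 FPKM in the knockdown (q = 0.0913 in the authors' deposited Cuffdiff table) and from 58.1 to 43.8 FPKM between wild type and rescue (q = 0.0098 in the authors' deposited Cuffdiff table). The medians of those 8 genes were -0.09 and -0.10 in these comparisons, and between rescue and knockdown none of the 8 passed the threshold in the authors' Cuffdiff test, nor an unadjusted p of 0.05 (median 0.03).

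CREB target genes were called in both directions in the knockdown: of 18 models of 16 genes, 5 rose and 6 fell, with a median log2 fold of -0.02. Those with the smallest q and largest folds were Crh, which rose by 1.29 on the log2 scale, Scg2, which rose by 0.75, and the immediate early genes Junb and Egr1, which fell by 0.50 and 0.49. Between rescue and knockdown 2 of 17 models fell, Crh from 10.7 to 6.51 FPKM and Scg2 from 155 to 127 FPKM, and the list's median log2 fold was -0.10. Between rescue and wild type 2 of 18 models rose and 7 fell, with a median of -0.05. Junb, Nr4a1, Egr1 and Fos had the largest folds at the smallest q of that table and fell by 0.59, 0.56, 0.55 and 0.55 on the log2 scale. CREB target lists hold genes that other pathways also control. The lists were chosen with earlier results of these data known, so their counts are given as description.

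**Figure D4:**
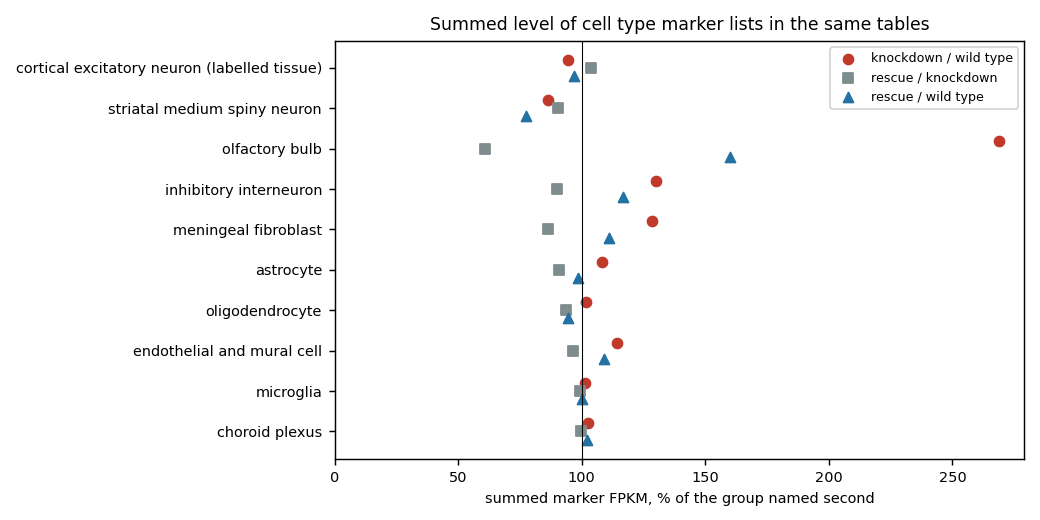
Summed FPKM of each cell-type marker list as a percentage of the group named last in each comparison. Olfactory bulb markers stood at 269% of wild type in the knockdown and 160% in the rescue group, and striatal markers at 86.4% and 77.6%.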

How the data were processed

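Frontal cortex RNA of 12 mice, 4 per group, was measured by sequencing of polyadenylated RNA. Per the submitters' processing notes, FastQC 0.65, TopHat, TopHat2 2.1.0, Cufflinks 2.2.1.0 and Cuffdiff 2.2.1.3 were used with builds mm10 and GRCm38; the series' design text adds that a Galaxy server was used. The authors deposited 3 Cuffdiff tables, 1 per pair of groups, assembled and normalised separately. Per the file headers, the authors' run gave each group 1 FPKM and each pair a log2 fold, a test score, a p-value and a q-value. Benjamini-Hochberg adjustment of the deposited p-values gave the deposited q-values to within 5.14e-07, and the smallest p was 5e-05.

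Folds were recomputed here as log2 of the deposited FPKM values, since 498 fold cells of the table of rescue against knockdown could not be read. Models were called at p under 0.05 and q under 0.10, as in the design text. Python 3.11.15, pandas 2.3.3, numpy 2.4.6, scipy 1.17.1 and matplotlib 3.10.9 were used, and the counting steps were tested on simulated data. All 45 symbols were found in GENCODE M21 (GRCm38), from which gene coordinates come. The alternatives were other thresholds, FPKM filters of 1 and 5, models of a lone symbol, a pseudocount of 1 FPKM, centred folds and p from the test statistic.

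The members and lists were chosen with earlier results of these data known. Named were called members, PKA subunits, members with an unadjusted p under 0.05, the 3 most abundant wild-type members of each other family, and up to 4 called genes per list by smallest q, then largest fold; other names were picked with their values in view. Depth per sample is unknown, and p-values are the authors'.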

Additional observations from a re-analysis of the deposited data

How the results depend on the processing

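No paired analysis was possible because the tables hold 1 value per group, and for the same reason no animal could be left out. The count of members called in the knockdown against wild type (4) was 3 with a minimum mean of 1 FPKM, which removed Pde3a, 2 with a minimum mean of 5 FPKM, which also removed Pde1c, and 0 with p from the test statistic. For rescue against knockdown the count (1) was 0 with a minimum mean of 1 or 5 FPKM, with q under 0.05 and with p from the test statistic, and 7 at an unadjusted p under 0.05. For rescue against wild type (0) it was 3 at an unadjusted p. With q under 0.05 Pde1c and Adcy10 lost their calls. Read as a normal deviate, the deposited statistic was at the median 0.50 of the one that the deposited p gives, and the cause was not tested. Counts with p from the statistic follow from that smaller scale and cannot decide on the calls.

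The members' median log2 fold ran from -0.037 to -0.017 for knockdown against wild type and from 0.023 to 0.036 between rescue and knockdown over the filters, pseudocount and centring tried; between rescue and wild type it ran from -0.0091 to 0.0083, the value above 0 coming with centring. Centring changed the sign of 6 of 74 named folds, all uncalled and near 0: Pde1b became 0.0036 between rescue and knockdown, and between rescue and wild type Akap8/Akap8l became 0.0086, Pde1a 0.0052, Prkacb 0.0080, Prkar1a 0.0096 and Prkar2a 0.0040; the cause is the shift of the centre. The pseudocount changed no sign.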
